A study of Mus musculus with 95 samples.

Results

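The sciatic nerve (SCN) was compared with the dorsal root ganglia (DRG) of healthy mice, using the untreated db/+ libraries only. These are 6 SCN and 6 DRG libraries, 12 of the 95 RNA-Seq libraries of the series, chosen by their tissue, genotype and treatment labels. The series as a whole profiled SCN, DRG, kidney glomeruli and kidney cortex of diabetic db/db mice and their db/+ controls, each untreated or given pioglitazone, an agonist of the nuclear receptor PPARγ, to compare diabetic nerve disease with diabetic kidney disease. The difference between the 2 nerve tissues in control mice sets the scale on which changes in either of them can be read.

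The db/+ mice were males of the strain BKS.Cg-m +/+ Leprdb/J, 16 weeks old, that carry 1 copy of the db allele of the leptin receptor gene Lepr and received no drug. A second set of mice served as a check on the comparison: 6 SCN and 6 DRG libraries of db/+ PIO mice of the same strain, sex and age, given pioglitazone in the chow at 15 mg/kg for 11 weeks. All of these libraries therefore come from Lepr heterozygotes, not from wild type mice. The labels do not say whether an SCN and a DRG library with the same number come from 1 mouse, so the p-values measure the spread between these libraries.

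The SCN is a bundle of axons. Those of its sensory fibres extend from cell bodies that lie in the DRG, and in the nerve they are wrapped by Schwann cells, the myelinating glia of the periphery. The nerve is further held in layers of connective tissue: the endoneurium with its fibroblasts, macrophages, mast cells and vessels, the perineurium that forms a barrier, and the epineurium with fat and collagen. The DRG holds the cell bodies themselves, each enclosed by satellite glia, so most messenger RNA of sensory neurons is made and found there.

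Levels are FPKM (fragments per kilobase of transcript, scaled to the mapped fragments of the library), which are per length and allow levels of different genes to be set side by side. Differences are SCN minus DRG on the log2(FPKM + 1) scale with their standard error, which understates the change of genes of low level. A gene was called when its Benjamini-Hochberg adjusted p in limma was below 0.05. Exact 0 values were treated as missing, and a gene was tested when it had at least 3 values above 0 in each tissue and reached 1 FPKM in at least 3 of the 12 libraries.

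The meaning of a 0 in these tables limits every statement below. Of the gene symbols in the files, 17231 were above 0 in at least 1 of the 12 libraries and 8176 were listed at 0 in all 12. The share of zeros fell and then rose again with the level of a gene, so a 0 was not a mark of low level. Genes with a median of 0.3 to 1 FPKM among their values above 0 had the lowest share of zeros, 25.4% of values in SCN and 25.5% in DRG. At 100 to 300 FPKM the share was 49.4% in SCN and 51.2% in DRG. Actb, the cytoplasmic actin that every cell uses, had 698, 742 and 651 FPKM in the 3 SCN libraries with a value, was listed at 0 in the other 3, and was listed at 0 in all 6 DRG libraries. Ppia, cyclophilin A, had 1231 to 1532 FPKM in all 6 SCN libraries (median 1391), against 2039.9 to 2543 FPKM in all 6 DRG libraries (median 2279), a log2 difference of -0.72 ± 0.08. A gene listed at 0 is therefore given only as that, with no fold change. With each 0 entered as a value instead, 54 of the 107 named genes kept their direction and their side of the threshold, 49 lost the call and 4 changed sign.

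**Figure D1:**
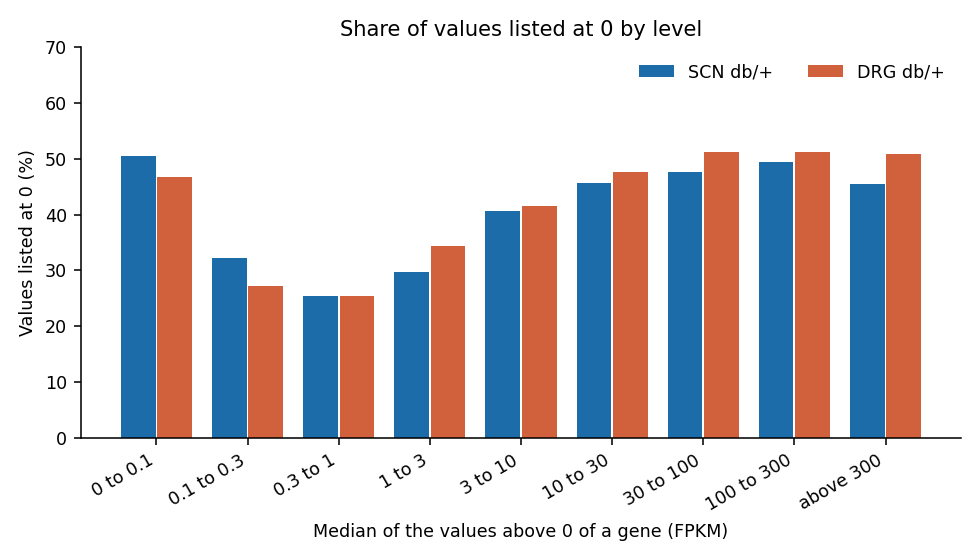
Share of values listed at exactly 0 (vertical axis, percent) for genes grouped by the median of their values above 0 (horizontal axis, FPKM), in the 6 SCN db/+ libraries (blue, left of each pair) and the 6 DRG db/+ libraries (orange). The share was lowest, 25.4% and 25.5%, at 0.3 to 1 FPKM and was higher again for abundant genes.

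Some libraries stood apart from the others of their tissue. In SCN, replicates 5 and 6 were both below replicates 1 to 4 in 426 of 1884 genes valued in all 6, by at least 2-fold in 52 of them, and both above in 163. Cldn1, a tight junction protein of the perineurium, was at 52.7 to 84.3 FPKM in SCN replicates 1 to 4 and at 16.7 and 13.8 FPKM in replicates 5 and 6. Named genes whose difference moved by over 1.5 times without these 2 libraries are given with and without them. In DRG, replicate 4 was the highest and replicate 5 the lowest in S100a9, a calcium-binding protein of neutrophils, at 303 and 14.6 FPKM, while Nefl was between 3513 and 3734 FPKM in all 6. Mir689-1, LOC236598 and Rn18s together took 6.44 to 11.5% of the FPKM sum of an SCN library and 27.2 to 48.5% of that of a DRG library. SCN libraries had 9153 ± 723 genes above 0 and DRG libraries 8268 ± 426 (SD, n = 6 each, two-sided exact permutation p = 0.013).

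**Figure D2:**
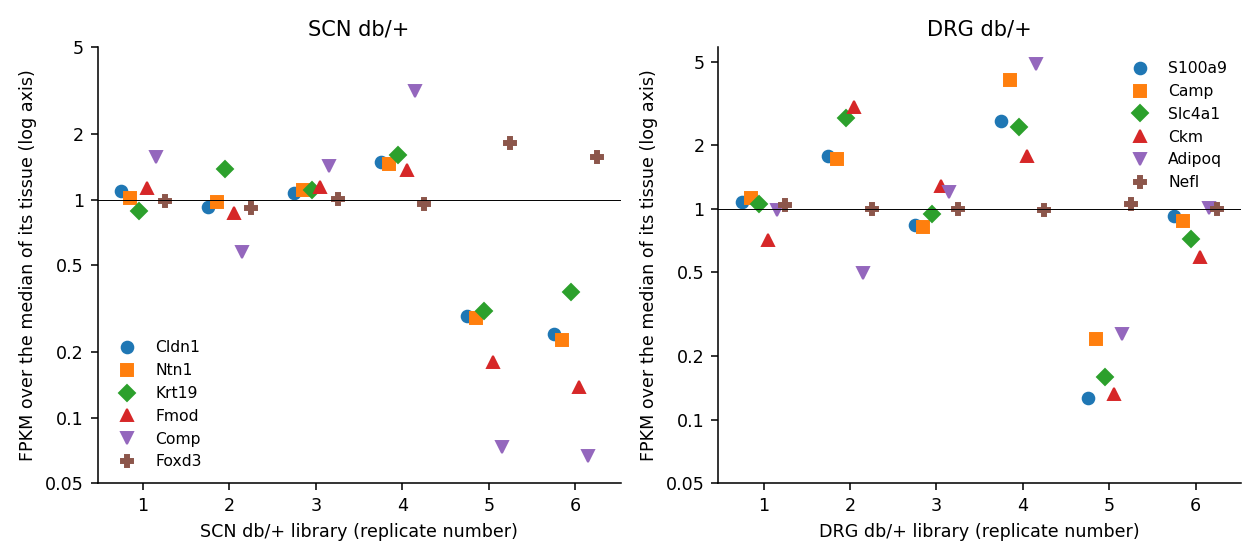
FPKM of 6 genes in each library over the median of its tissue (log axis) for the 6 SCN db/+ libraries (left panel) and the 6 DRG db/+ libraries (right panel), with 1 marker for each gene, spread sideways within a library. In SCN, Cldn1, Ntn1, Krt19, Fmod and Comp were low and Foxd3 high in replicates 5 and 6. In DRG, the genes of granulocytes (S100a9, Camp), red blood cells (Slc4a1), muscle (Ckm) and fat (Adipoq) were lowest in replicate 5 and among the 2 highest in replicate 4, while Nefl was even.

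Of 4367 genes tested, 3657 (83.7%) were called, 2296 of them higher in SCN (52.6% of those tested) and 1361 lower (31.2%). At least 2-fold differences were called in 1780 genes (40.8%), 1181 higher (27%) and 599 lower (13.7%). Most tested genes thus differed between the tissues, and a group of genes has to be read against these shares. The median log2 difference over all tested genes was 0.36, and this centre depends on the scaling. With median-of-ratios scaling it was -0.09, with 1654 genes higher and 1947 lower, and with quantile scaling it was -0.16, with 1313 higher and 1784 lower. The split of the calls by direction, 62.8% higher as deposited, was 45.9% and 42.4% under these scalings. Many of the groups of genes below are described by differences that are large beside these shifts. The exceptions include the Hox, skeletal muscle, immediate early and axon guidance lists, whose calls under other scaling are given with them. Without SCN replicates 5 and 6, 3418 genes could be tested, of which 2866 were called (83.9%), 1730 higher (50.6%) and 1136 lower (33.2%). At 2-fold these were 1408 (41.2%), 913 higher (26.7%) and 495 lower (14.5%).

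The low side of a tested gene was often below the level needed: 334 of the 4367 tested genes reached 1 FPKM in DRG libraries only and 634 in SCN libraries only. Such a gene passed the filter through the tissue where it is high and could hardly be called the other way. The counts for the neuronal lists, and for the lists that were higher in SCN, are therefore descriptions of the members with values in both tissues. Of the tested members, 5 of 7 basement membrane, 4 of 9 perineurial, 4 of 17 matrix, 3 of 6 mast cell and 3 of 16 macrophage genes reached 1 FPKM in SCN only. Zeros also took members out of the lists that were higher in SCN. Listed at 0 in all SCN libraries only were 7 matrix, 5 adipocyte, 4 basement membrane, 3 Schwann cell regulator and 1 endothelial gene. Members of these lists at 0 in all DRG libraries only numbered 5, 1, 1, 0 and 0. In whole tissue, a smaller share of cells of a type and less RNA per cell cannot be told apart.

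The 3 largest falls under the rule for named genes were in proteins of the neuronal cytoskeleton. Of 25 listed genes found in the files, 5 could be tested and all 5 were called lower, with a median log2 difference of -7.29. Nefl and Nefm encode the light and medium subunits of the neurofilaments that fill large axons. Nefl had 5.43 to 16.2 FPKM in 5 SCN libraries (median 12.1), against 3513 to 3734 FPKM in all 6 DRG libraries (median 3551), with SCN replicate 1 listed at 0. No SCN library came near a DRG library, and the log2 difference was -8.26 ± 0.22 (limma adjusted p = 8.8e-12). Nefm had 2.72 to 23.3 FPKM in all 6 SCN libraries (median 9.64), against 1386 to 1559.7 FPKM in 5 DRG libraries (median 1428), a log2 difference of -7.29 ± 0.46. Nefl lies at chr14:68701920-68707152 on the plus strand of mm9, inside the annotated span of Nefm on the minus strand, chr14:68700647-68742903. The library kit does not keep the strand, so reads of the 2 genes could not be told apart where they overlap. Tubb3, the β-tubulin used by neurons, had 5.14 to 13.1 FPKM in all 6 SCN libraries (median 7.63), against 1715 to 1798 FPKM in 4 DRG libraries (median 1761). Uchl1, a ubiquitin hydrolase abundant in neurons, was the most highly expressed of them in SCN: it had 81.9 to 109 FPKM in 5 SCN libraries (median 86.7), against 1850.0 to 2026 FPKM in 4 DRG libraries (median 1960.4), a log2 difference of -4.43 ± 0.09. Tubb2b, another neuronal β-tubulin, had the smallest difference of the 5, -2.06 ± 0.10, with 42.8 to 56.2 FPKM in 4 SCN libraries (median 50.8), against 221, 215 and 197 FPKM in the 3 DRG libraries with a value.

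Other neuronal genes had values in all 6 DRG libraries and were listed at 0 in all 6 SCN libraries. Sncg, γ-synuclein, had 2854 to 3131 FPKM in all 6 DRG libraries (median 2913), and Ina, α-internexin, had 15.2 to 21.6 FPKM in all 6 DRG libraries (median 19.6). The reverse also occurred. Prph, the peripheral intermediate filament protein of sensory neurons, had 7.65 to 11 FPKM in 5 SCN libraries (median 9.37), and was listed at 0 in all 6 DRG libraries. The same held for 12 of the 25 cytoskeletal genes, among them Gap43 and Stmn3, so that the list names of neuronal genes cover only the part of each list that carries values.

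**Figure D3:**
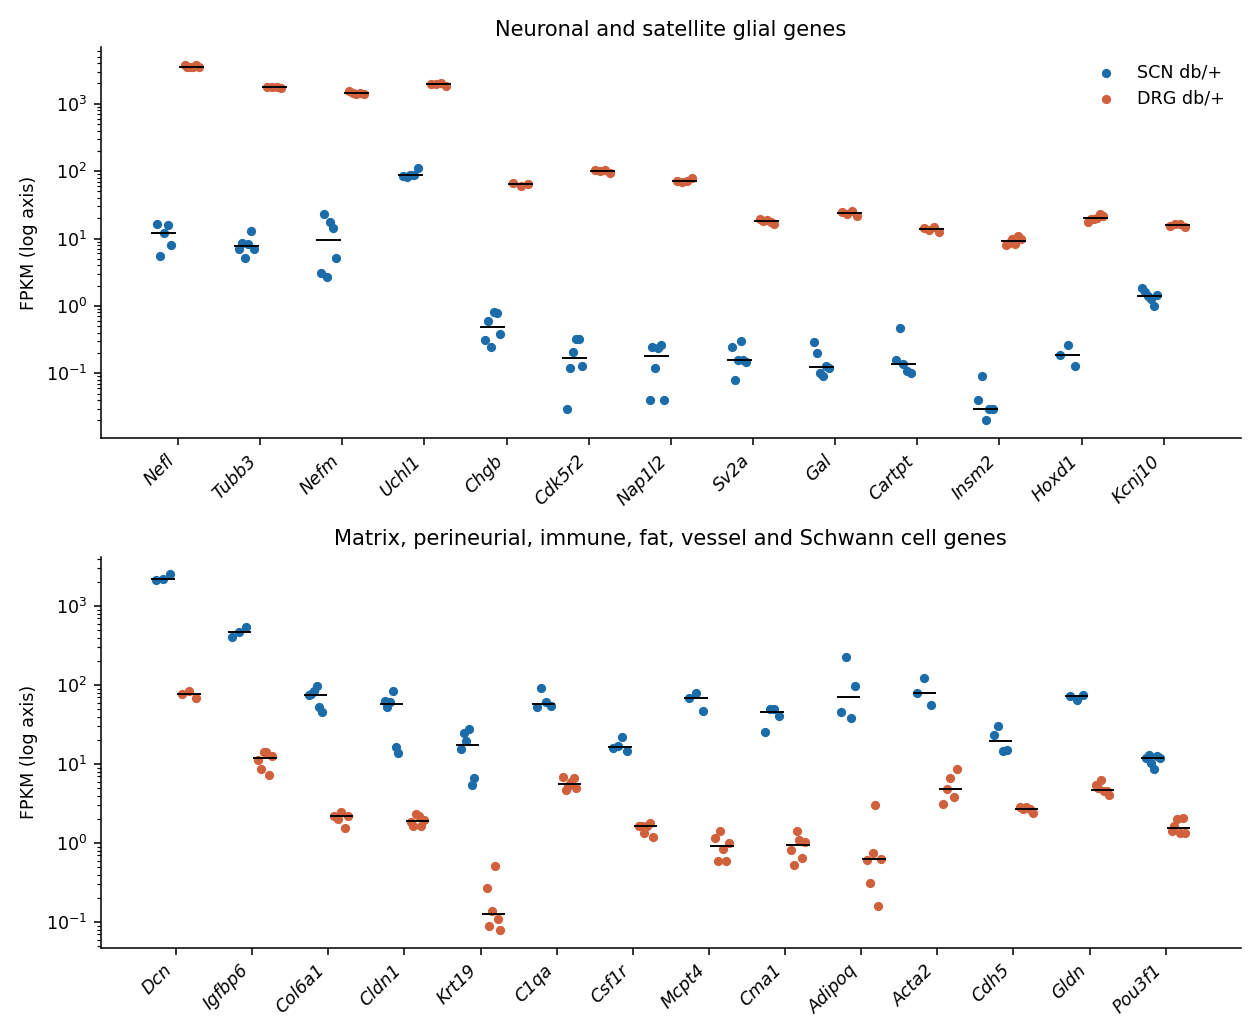
FPKM (log axis) of the genes named along the horizontal axis, SCN db/+ (blue) to the left of DRG db/+ (orange) for each gene, 1 point for each library with a value above 0 and the median as a bar. The neuronal genes and Kcnj10, the only satellite glial gene shown, lie lower in SCN (upper panel). The matrix, perineurial, immune, fat, vessel and Schwann cell genes shown lie higher (lower panel). The tissues do not overlap in any gene shown.

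Genes of the synapse and of peptide release followed the same direction. All 4 testable synaptic genes of 35 were called lower in SCN (median log2 difference -3.65), and another 25 were listed at 0 in all DRG libraries while SCN had values. Chgb, chromogranin B of secretory granules, had 0.25 to 0.81 FPKM in all 6 SCN libraries (median 0.49), against 67.5, 60.8 and 65.5 FPKM in the 3 DRG libraries with a value, a log2 difference of -5.44 ± 0.13. Sv2a, a glycoprotein of synaptic vesicles, had 0.08 to 0.30 FPKM in all 6 SCN libraries (median 0.16), against 16.7 to 19.8 FPKM in 5 DRG libraries (median 18). Bsn, the active zone scaffold Bassoon, differed by -3.28 ± 0.09, and Slc17a8, the vesicular glutamate transporter VGLUT3, by -2.28 ± 0.06. All 4 of these genes stayed under 1 FPKM in every SCN library, so they reached the filter through DRG.

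Of the 19 sensory neuropeptide genes, 4 could be tested and all 4 were called lower in SCN, 3 of them by more than 2-fold. Nppb, the natriuretic peptide that in the mouse serves as a transmitter of itch, had 0.07, 0.11 and 0.21 FPKM in the 3 SCN libraries with a value, against 23.2 to 36.8 FPKM in 4 DRG libraries (median 30.4), a log2 difference of -4.77 ± 0.15. Gal, galanin, had 0.09 to 0.29 FPKM in all 6 SCN libraries (median 0.12), against 21.7 to 25.5 FPKM in 4 DRG libraries (median 24.1), a log2 difference of -4.43 ± 0.07. Cartpt, the precursor of the CART peptides, had 0.10 to 0.47 FPKM in 5 SCN libraries (median 0.14), against 12.7 to 14.8 FPKM in 4 DRG libraries (median 13.8). Npy, neuropeptide Y, which healthy sensory neurons make little of, was low in both tissues, with 0.59, 0.74 and 0.35 FPKM in the 3 SCN libraries with a value, against 0.44 to 2.32 FPKM in all 6 DRG libraries (median 1.44). Its ranges overlapped and its difference was -0.59 ± 0.22 (limma adjusted p = 0.026). Sst, somatostatin, could not be tested, with 0.11 FPKM in a single SCN library and 14.2 to 27.5 FPKM in all 6 DRG libraries (median 18.5). Calca, the CGRP precursor of peptidergic nociceptors, was listed at 0 in all 6 DRG libraries and had 2.45 to 7.12 FPKM in 5 SCN libraries (median 3.25).

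The stretches before the start sites of Chgb and Cartpt are shown because both genes of regulated secretion were lower in SCN and both hold the palindromic cyclic AMP response element TGACGTCA, set in capitals. Each is the 250 bases before the start site, read 5′ to 3′ towards the gene, from the RefSeq promoter table of GRCm38.p6. The start site is that of the RefSeq table. Each stretch matched mm9 exactly once, at chr2:132607128-132607377 (plus strand) and chr13:100670639-100670888 (minus strand).
Chgb: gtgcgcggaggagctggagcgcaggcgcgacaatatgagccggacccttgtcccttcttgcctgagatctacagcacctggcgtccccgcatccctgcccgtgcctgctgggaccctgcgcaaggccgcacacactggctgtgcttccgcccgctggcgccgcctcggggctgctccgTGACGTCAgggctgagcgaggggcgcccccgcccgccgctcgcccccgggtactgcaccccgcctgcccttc
Cartpt: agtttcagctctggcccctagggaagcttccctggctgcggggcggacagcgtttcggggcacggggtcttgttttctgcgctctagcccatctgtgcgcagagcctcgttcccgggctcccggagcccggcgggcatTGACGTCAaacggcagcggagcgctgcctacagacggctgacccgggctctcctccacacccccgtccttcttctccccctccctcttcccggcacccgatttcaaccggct
The mm9 annotation used here has Chgb at chr2:132607014-132620815, so that the stretch shown for it lies inside that span, after the start annotated there. Counted from the RefSeq start site, the element begins 72 bases before it in Chgb and 112 bases before it in Cartpt. It was found in 2 of the 5 peptide and granule genes searched and in 508 of 32851 promoters of the table (1.55%, same length; the element reads the same on both strands). The motif was chosen after the values were seen, and the match is a description of these letters only.

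Of 19 transcription factors of sensory neurons, 2 could be tested and both were called lower in SCN. Both reached 1 FPKM in DRG libraries only, so they could hardly be called higher. Another 10 were listed at 0 in all DRG libraries only, and the list as a whole has no direction that can be read. Insm2, a zinc finger factor, had 0.02 to 0.09 FPKM in 5 SCN libraries (median 0.03), against 7.95 to 10.9 FPKM in all 6 DRG libraries (median 9.21), a log2 difference of -3.29 ± 0.08. Pou4f2, the POU factor Brn3b, differed by -2.94 ± 0.08. Isl1 and Pou4f1, which define sensory neurons, were listed at 0 in all 6 DRG libraries and had at most 0.13 and 0.16 FPKM in SCN, so these defining markers could not be used to check the DRG label. Nefl, Tubb3, Sncg and Insm2 had values in DRG, but they give no independent check either. The first 3 met rules that pick out genes high in DRG, and Insm2 reached the filter through DRG.

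All 4 testable receptors of the 53 nociceptor and transduction genes were called lower in SCN, and 26 more were listed at 0 in all DRG libraries only. Chrna3, a nicotinic acetylcholine receptor subunit, had 0.03 to 0.10 FPKM in 4 SCN libraries (median 0.045), against 3.02 to 4.66 FPKM in all 6 DRG libraries (median 3.83), a log2 difference of -2.19 ± 0.10. The smallest difference was that of Bdkrb2, the bradykinin B2 receptor, with 0.70 to 1.62 FPKM in all 6 SCN libraries (median 0.91), against 2.04 to 2.51 FPKM in all 6 DRG libraries (median 2.27), and -0.74 ± 0.10 on the log2 scale. The 1 testable sodium channel was Scn4a, known mainly from skeletal muscle, with 0.01 to 0.05 FPKM in all 6 SCN libraries (median 0.03), against 1.26 to 1.48 FPKM in 5 DRG libraries (median 1.42). Another 11 sodium channel genes had values in SCN only, all listed at 0 in the 6 DRG libraries.

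Of 52 potassium and HCN channel genes in the files, 13 could be tested. Of these, 9 were called lower in SCN and 3 higher, with 1 not called. Over all tested genes, 31.2% were called lower and 52.6% higher. Among the 13, 6 reached 1 FPKM in DRG libraries only and 2 in SCN libraries only, so they could hardly be called the other way. Another 18 were listed at 0 in all DRG libraries only. Kcna4, an A-type channel, had 0.02 to 0.09 FPKM in 5 SCN libraries (median 0.06), against 8.1, 7.39 and 7.39 FPKM in the 3 DRG libraries with a value, a log2 difference of -3.03 ± 0.07. Hcn3, a pacemaker channel, differed by -2.93 ± 0.09, and Kcnq5, a channel of the M-current, had 0.49 to 0.53 FPKM in all 6 SCN libraries (median 0.51), against 4.74 to 5.75 FPKM in 4 DRG libraries (median 5.02). Kcna1, the channel of the juxtaparanode beside the node of Ranvier, had 74.5, 68 and 90.2 FPKM in the 3 SCN libraries with a value, against 89.1 to 94.4 FPKM in 4 DRG libraries (median 91.7). Its small difference of -0.25 ± 0.10 was called (limma adjusted p = 0.039), although the ranges overlapped. The 3 higher in SCN were Kcnj8 (2.40 ± 0.09), an inward rectifier of pericytes, Kcnj2 (1.34 ± 0.20) and Kcna5 (0.65 ± 0.10). Kcnj10, the inward rectifier of satellite glia, was lower in SCN, with 1.01 to 1.87 FPKM in all 6 SCN libraries (median 1.42), against 15.1 to 16.7 FPKM in 4 DRG libraries (median 15.8), a log2 difference of -2.80 ± 0.09. It does not stand for the satellite glial list. Of 13 listed genes, 2 could be tested, 1 called lower and 1 not called, and 6 were listed at 0 in all DRG libraries only. Fabp7, another satellite glial gene, had 1.8 to 5.62 FPKM in all 6 SCN libraries and was listed at 0 in all 6 DRG libraries. Cacng4, an auxiliary calcium channel subunit, had 0.07, 0.14 and 0.09 FPKM in the 3 SCN libraries with a value, against 2.71 to 3.42 FPKM in all 6 DRG libraries (median 3.17).

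Beyond the lists, the rule for the largest falls named further neuronal genes. Cdk5r2, an activator of the kinase Cdk5, had 0.03 to 0.32 FPKM in all 6 SCN libraries (median 0.17), against 94.5 to 104 FPKM in 4 DRG libraries (median 102), a log2 difference of -6.42 ± 0.08. Nap1l2, a nucleosome assembly protein of neurons, differed by -5.98 ± 0.08. Rprm, known as an inducer of cell cycle arrest, had 0.33 to 0.49 FPKM in all 6 SCN libraries (median 0.43), against 48.7 to 60.8 FPKM in all 6 DRG libraries (median 53.2), with values in all 12 libraries and a difference of -5.29 ± 0.06 (limma adjusted p = 2.8e-15). Nptx2, a pentraxin secreted at synapses, differed by -5.15 ± 0.14.

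S100a9 and S100a8, partners in calprotectin of neutrophils, were also among the largest falls, and they varied far more between libraries. S100a9 had 0.17 to 2.92 FPKM in all 6 SCN libraries (median 1.2), against 14.6 to 303 FPKM in all 6 DRG libraries (median 116), a log2 difference of -5.61 ± 0.59. S100a8, which lies beside it on chromosome 3 of mm9, differed by -5.44 ± 0.62. Camp, the cathelicidin of granulocytes, had 11.6, 17.8, 8.46, 42.2, 2.48 and 9.06 FPKM in DRG replicates 1 to 6 and was listed at 0 in all SCN libraries. Slc4a1, the anion exchanger of red blood cells, moved with them: it had 0.01 to 0.10 FPKM in 4 SCN libraries (median 0.045), against 0.22 to 3.73 FPKM in all 6 DRG libraries (median 1.38), a log2 difference of -1.29 ± 0.33. Hba-a1, an α-globin gene, did not differ beyond its spread, with 5.04 to 126 FPKM in all 6 SCN libraries (median 32.8), against 12.5 to 108 FPKM in 5 DRG libraries (median 37). The part of blood or marrow in these differences was not tested.

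Myelin genes gave no test in either direction. Of 21 listed myelin genes in the files, none had 3 values in each tissue. Mbp, myelin basic protein, had 10695 to 13038 FPKM in all 6 SCN libraries (median 11788) and was listed at 0 in all 6 DRG libraries. Mal and Pmp2, proteins of myelin as well, were on the other side, with 39.4 to 49.4 FPKM in 5 DRG libraries (median 40.3) for Mal and 13.3 to 27.9 FPKM in 5 DRG libraries (median 18.8) for Pmp2, and 0 in all 6 SCN libraries. Pmp22, Prx and 8 other myelin genes were at 0 in all 12. The central myelin gene Mog was at 0.16 FPKM or below wherever it had a value. Aqp4, also on the list of central glial genes, could not be tested. It had 2.24 and 2.13 FPKM in 2 DRG libraries, against 0.01 to 0.02 FPKM in 3 SCN libraries. Of 9 genes of that list in the files, 2 were tested and both were called higher in SCN (median 0.66). With median-of-ratios or quantile scaling, 1 was called higher.

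Regulators of Schwann cells that could be tested were all higher in SCN, 5 of 5, with a median log2 difference of 2.23. Pou3f1, the POU factor Oct6 of the promyelinating stage, had 8.67 to 13 FPKM in all 6 SCN libraries (median 11.8), against 1.33 to 2.1 FPKM in all 6 DRG libraries (median 1.53), a log2 difference of 2.23 ± 0.11 (limma adjusted p = 5e-10). Foxd3, a forkhead factor of the neural crest lineage, had 32.4 to 64.4 FPKM in all 6 SCN libraries (median 35.4), against 4.93 to 7.57 FPKM in all 6 DRG libraries (median 6.39). The 2 highest SCN values, 64.4 and 55.9 FPKM, were those of replicates 5 and 6, and the difference was 2.53 ± 0.17 with them and 2.26 ± 0.09 without them. Wwtr1, the Hippo effector TAZ, had 26.9 to 41 FPKM in 4 SCN libraries (median 29.6), against 3.87 to 4.14 FPKM in all 6 DRG libraries (median 3.91). Nfatc4, a calcineurin-dependent factor that acts in myelination, differed by 2.05 ± 0.15, and Pou3f2 by 0.91 ± 0.12. Gldn, gliomedin, which Schwann cell microvilli use to gather sodium channels at nodes, had 72.8, 65.5 and 75.2 FPKM in the 3 SCN libraries with a value, against 4.11 to 6.29 FPKM in all 6 DRG libraries (median 4.77), a log2 difference of 3.60 ± 0.11.

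Genes linked to non-myelinating or repair Schwann cells did not move together. Gfap, an intermediate filament of non-myelinating Schwann cells, was higher in SCN, with 2.49 to 4.53 FPKM in 5 SCN libraries (median 2.63), against 0.39 to 0.76 FPKM in all 6 DRG libraries (median 0.56). Shh, sonic hedgehog, was lower, with 3.25 to 8.21 FPKM in 4 SCN libraries (median 6.05), against 13.1 to 15.7 FPKM in 5 DRG libraries (median 15.3), a log2 difference of -1.26 ± 0.18. Jun, the transcription factor of the repair state, was slightly lower, with 16.5 to 27.9 FPKM in 5 SCN libraries (median 20.1), against 28 to 34.7 FPKM in 5 DRG libraries (median 32.5), a difference of -0.52 ± 0.13. Sox2 was not called, at 0.23 ± 0.14.

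Testable growth factors were mostly higher in the nerve, and few receptors could be tested. Of 19 neurotrophic factor receptor genes in the files, 3 were tested, with 1 called higher, 1 lower and 1 not called. Another 8 were listed at 0 in all DRG libraries only. Of 9 testable neurotrophic factors, 7 were called higher in SCN and 1, Nrtn, lower (-0.56 ± 0.16). Among the 9, 4 reached 1 FPKM in SCN libraries only and 1 in DRG libraries only, so they could hardly be called the other way. Lif, a cytokine of the interleukin 6 family, had 3.01 to 4.38 FPKM in 4 SCN libraries (median 3.7), against 0.08 to 0.20 FPKM in all 6 DRG libraries (median 0.13), a log2 difference of 2.04 ± 0.08. Fgf2 differed by 1.99 ± 0.17, and Ccl2, a chemokine that draws monocytes, had 7.36 to 14.1 FPKM in all 6 SCN libraries (median 10.9), against 2.14 to 3.89 FPKM in all 6 DRG libraries (median 2.42). Hbegf, a ligand of the epidermal growth factor receptor, differed by 2.97 ± 0.10, and the receptor Egfr itself by 2.31 ± 0.21. Of 21 neuregulin and ErbB genes only these 2 could be tested, and 8 were listed at 0 in all DRG libraries only. Met, the receptor of hepatocyte growth factor, had 7.37 to 9.07 FPKM in 4 SCN libraries (median 8.21), against 0.41 to 0.67 FPKM in all 6 DRG libraries (median 0.56), a difference of 2.57 ± 0.08. Gfra3, the artemin receptor of nociceptors, was lower in SCN, with 3.14 to 6.52 FPKM in all 6 SCN libraries (median 4.81), against 17.7 to 22.7 FPKM in 4 DRG libraries (median 21.7), a difference of -1.93 ± 0.16. Ngfr, the low affinity receptor p75, could not be tested, with 13.8 to 22.6 FPKM in 5 SCN libraries and 226 and 234 FPKM in 2 DRG libraries.

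All 9 testable perineurial and barrier genes of 18 were called higher in SCN, each by at least 2-fold, with a median log2 difference of 2.84. Krt19, a keratin of perineurial cells, had 5.43 to 28.1 FPKM in all 6 SCN libraries (median 17.6), against 0.08 to 0.52 FPKM in all 6 DRG libraries (median 0.12), a difference of 3.67 ± 0.34. Gli1, a target of hedgehog signalling, had 24.3, 21.7 and 17.7 FPKM in the 3 SCN libraries with a value, against 0.55 to 0.97 FPKM in all 6 DRG libraries (median 0.65), and Foxd1, a forkhead factor, had 5.62 to 16.5 FPKM in 5 SCN libraries (median 11.9), against 0.25 to 1.13 FPKM in all 6 DRG libraries (median 0.52). The 3 members with a value in all 6 SCN libraries were all lower in replicates 5 and 6 than in the other 4, and all 7 members that could be tested without those libraries were still called higher. Cldn1 differed by 3.80 ± 0.39 with them and by 4.47 ± 0.12 without them, and Krt19 by 4.23 ± 0.15 without them. Ntn1, the guidance factor netrin 1, was at 29.6 to 44.0 FPKM in SCN replicates 1 to 4, 8.64 and 6.86 FPKM in replicates 5 and 6, and 0.49 to 1.4 FPKM in all 6 DRG libraries (median 1.16).

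Most connective tissue genes were higher in SCN. Of 17 tested matrix and fibroblast genes, 11 were called higher, 3 lower and 3 were not called. Dcn, the proteoglycan decorin, had 2167, 2203 and 2518 FPKM in the 3 SCN libraries with a value, against 77.9, 85 and 67.9 FPKM in the 3 DRG libraries with a value, a difference of 4.88 ± 0.12. Dpt, dermatopontin, had 11.5 to 88 FPKM in 5 SCN libraries (median 32.3), against 0.29 to 0.64 FPKM in all 6 DRG libraries (median 0.49), a difference of 4.55 ± 0.40, and of 5.24 ± 0.24 without SCN replicates 5 and 6. Vcan, versican, was among the evenest, with 8.28 to 12.5 FPKM in all 6 SCN libraries (median 10.1), against 0.55 to 0.66 FPKM in all 6 DRG libraries (median 0.64), a difference of 2.77 ± 0.08. Pdgfra, the receptor that marks fibroblasts, had 28.4, 21.1 and 16.8 FPKM in the 3 SCN libraries with a value, against 0.95, 0.98 and 1.2 FPKM in the 3 DRG libraries with a value. The 3 lower genes were Scx, the scleraxis factor of tendon, with 0.06 to 0.58 FPKM in all 6 SCN libraries (median 0.34), against 4.37 to 6.93 FPKM in 5 DRG libraries (median 5.85), Sfrp1 (-1.17 ± 0.34), a Wnt antagonist, and Spon1 (-0.88 ± 0.27), spondin 1. Comp, the cartilage oligomeric matrix protein, had 8.2 to 45.1 FPKM in SCN replicates 1 to 4, 1.05 and 0.95 FPKM in replicates 5 and 6, and 14.7 to 18.7 FPKM in 4 DRG libraries (median 16.2). It was not called (-0.84 ± 0.84), and its sign changed to 0.30 without SCN replicates 5 and 6. Fmod, fibromodulin, was called either way, with 3.18 ± 0.48 with them and 4.02 ± 0.12 without them.

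Of the collagen genes, Col6a1, a chain of collagen VI, had 45.3 to 98.8 FPKM in all 6 SCN libraries (median 75.7), against 1.54 to 2.45 FPKM in 5 DRG libraries (median 2.19), a difference of 4.53 ± 0.18, and Pcolce2, an enhancer of procollagen processing, was lower (-2.14 ± 0.78, and -1.06 ± 0.35 without SCN replicates 5 and 6). Another 15 collagen and collagen assembly genes were listed at 0 in all 6 SCN libraries only, Col1a1 among them. All 7 testable basement membrane genes were higher. Nid1, nidogen 1, had 63.6 to 116 FPKM in 4 SCN libraries (median 81.3), against 10.3 to 12.3 FPKM in all 6 DRG libraries (median 11.6), and Lama4, the laminin α4 chain, differed by 2.53 ± 0.09.

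Vessels were a further group, with 10 of 10 testable endothelial genes higher in SCN (median 1.90). Pecam1, another endothelial gene, could not be tested, with 3.13 to 4.55 FPKM in 5 DRG libraries and 0 in all 6 SCN libraries. Cdh5, the cadherin of endothelial junctions, had 14.8 to 30.5 FPKM in 4 SCN libraries (median 19.5), against 2.39 to 2.9 FPKM in 5 DRG libraries (median 2.72), a difference of 2.51 ± 0.19. Kdr, the main receptor of VEGF, had 9.67 to 14.8 FPKM in 4 SCN libraries (median 13.2), against 1.26 to 1.88 FPKM in all 6 DRG libraries (median 1.56). Of 7 mural genes, 5 were called higher and 0 lower as deposited. With median-of-ratios scaling these were 5 and 1, and with quantile scaling 5 and 0. Acta2, smooth muscle actin, had 78.8, 124 and 56.7 FPKM in the 3 SCN libraries with a value, against 3.14 to 8.66 FPKM in 5 DRG libraries (median 4.82), and Cspg4, the pericyte proteoglycan NG2, had 13.2 to 15.2 FPKM in 4 SCN libraries (median 15.1), against 1 to 1.26 FPKM in all 6 DRG libraries (median 1.21). Rgs5, which also marks pericytes, was not called, with 23.1 to 60.2 FPKM in 5 SCN libraries (median 46.6), against 39.7 to 46.1 FPKM in 5 DRG libraries (median 44).

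Macrophage genes were higher in SCN without exception among those tested, 16 of 16, each by at least 2-fold. The median log2 difference was 2.39. Csf1r, the receptor for colony stimulating factor 1, had 14.7 to 22 FPKM in 4 SCN libraries (median 16.5), against 1.18 to 1.78 FPKM in all 6 DRG libraries (median 1.65), a difference of 2.85 ± 0.11. C1qa and C1qb, subunits of complement C1q that lie close together on mm9 chromosome 4, differed by 3.27 ± 0.15 and 3.03 ± 0.07. Mrc1, the mannose receptor, had 7.87 to 13.8 FPKM in 5 SCN libraries (median 10.1), against 0.72 to 1.07 FPKM in all 6 DRG libraries (median 0.89). H2-Ab1, a class II antigen presentation gene, had 29.5 to 49.3 FPKM in all 6 SCN libraries (median 44.7), against 5.47 to 8.58 FPKM in all 6 DRG libraries (median 7.29), and Cx3cr1, the fractalkine receptor, had the smallest difference, 1.15 ± 0.16, with 0.99 to 3.28 FPKM in all 6 SCN libraries (median 2.45), against 0.20 to 0.62 FPKM in all 6 DRG libraries (median 0.46). The summed level of the 16 genes was 262 to 450 FPKM in SCN libraries and 33.8 to 95.3 FPKM in DRG libraries. None of the 7 macrophage genes with a value in all 6 SCN libraries put replicates 5 and 6 both above or both below the others.

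All 6 testable mast cell genes were called higher in SCN as deposited, with a median log2 difference of 3.84. With median-of-ratios scaling 5 of them were called higher and 0 lower, and with quantile scaling also 5 and 0. Mcpt4, a mast cell chymase of connective tissue, had 68.4, 79.7 and 47.5 FPKM in the 3 SCN libraries with a value, against 0.59 to 1.43 FPKM in all 6 DRG libraries (median 0.93), a difference of 5.08 ± 0.18. Cma1, the other chymase, had 25.4 to 50.2 FPKM in 4 SCN libraries (median 45.1), against 0.53 to 1.42 FPKM in all 6 DRG libraries (median 0.94). Cpa3, mast cell carboxypeptidase, had 10.8 to 24.1 FPKM in 5 SCN libraries (median 18.7), against 0.18 to 0.60 FPKM in 5 DRG libraries (median 0.40), and Tpsb2, a tryptase, differed by 3.96 ± 0.19. Hdc, which makes histamine, had the smallest difference, 0.42 ± 0.12. Summed over the 6 genes, SCN libraries had 52.0 to 123 FPKM and DRG libraries 2.15 to 4.43 FPKM.

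The stretches before the start sites of Mcpt4 and Cpa3 are shown because these proteases had some of the largest differences and both carry the letters TATAAA at the usual distance of a TATA box. Each is 250 bases, 5′ to 3′ towards the gene, from the same RefSeq table, and matched mm9 once, at chr14:56681148-56681397 (minus strand) and chr3:20142081-20142330 (minus strand). Capitals mark TATAAA on either strand.
Mcpt4: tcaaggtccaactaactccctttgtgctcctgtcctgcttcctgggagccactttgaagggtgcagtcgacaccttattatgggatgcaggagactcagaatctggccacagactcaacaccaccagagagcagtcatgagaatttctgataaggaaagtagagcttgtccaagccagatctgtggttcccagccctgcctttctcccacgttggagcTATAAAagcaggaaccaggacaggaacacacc
Cpa3: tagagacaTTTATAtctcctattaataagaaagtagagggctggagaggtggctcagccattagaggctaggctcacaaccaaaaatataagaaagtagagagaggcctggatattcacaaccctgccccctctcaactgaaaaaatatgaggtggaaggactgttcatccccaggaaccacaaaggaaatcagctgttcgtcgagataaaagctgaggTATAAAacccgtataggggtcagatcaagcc
The letters begin 32 bases before the start site of Mcpt4 and 31 bases before that of Cpa3, which has them a second time on the other strand (TTTATA) 242 bases before the start. They were found in 2 of 3 mast cell proteases with an entry and in 4063 of 32851 promoters (12.4%, both strands). This motif too was chosen after the values were seen.

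**Figure D4:**
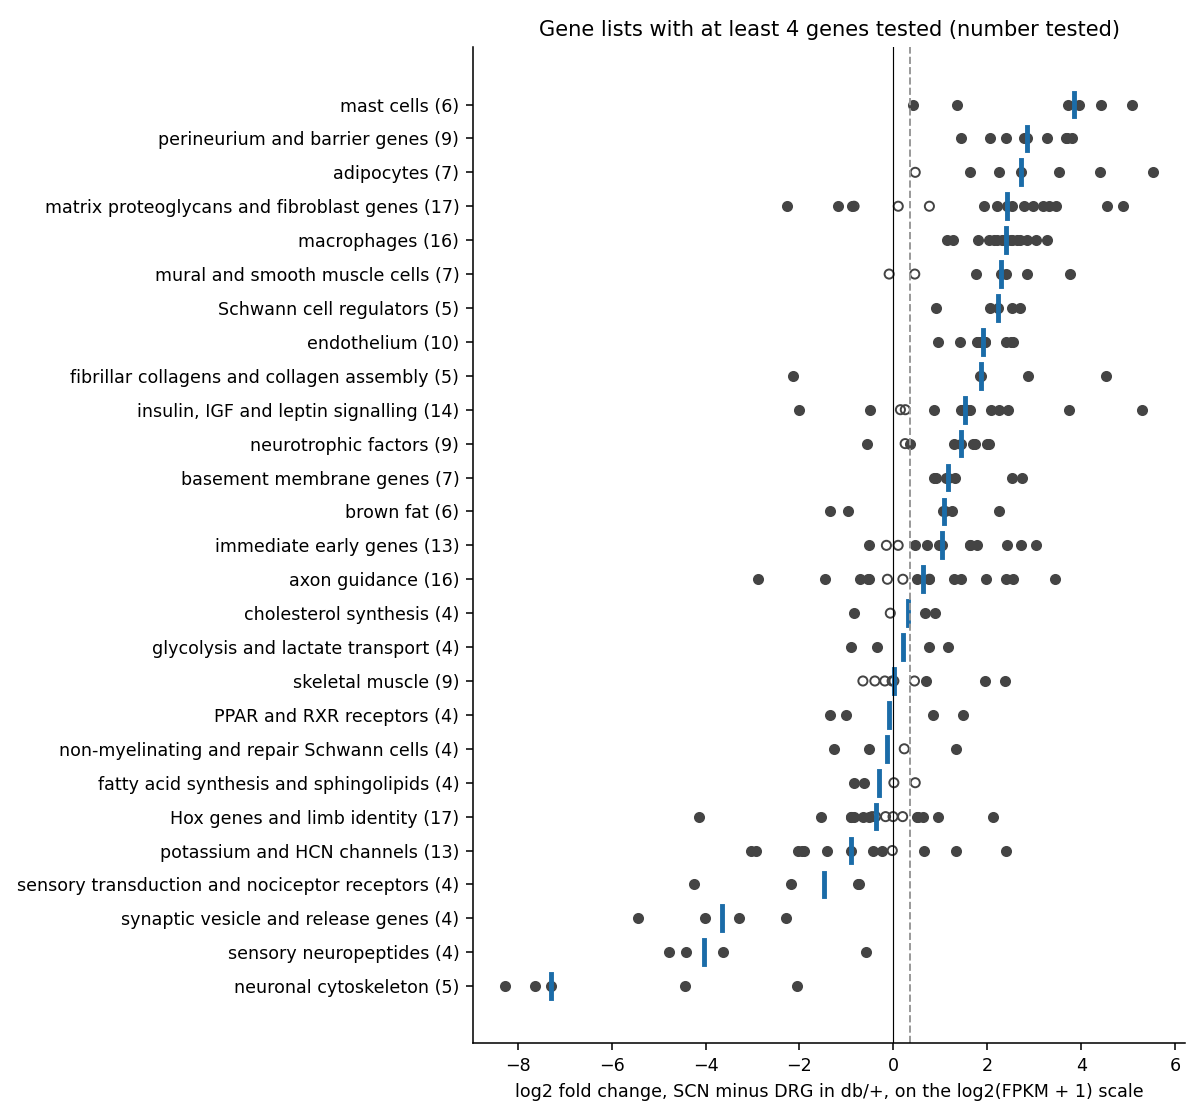
Log2 difference, SCN minus DRG, of every tested gene of each list (horizontal axis), for lists with at least 4 genes tested. Filled points are called genes, open points are not, bars are list medians, and the dashed line is the median of all 4367 tested genes, 0.36. The neuronal lists lie to the left and the mast cell, perineurial, fat, macrophage and Schwann cell regulator lists to the right.

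Fat genes were higher in SCN and uneven between its libraries. Of 7 testable adipocyte genes, 6 were called higher (median 2.72), and 2 of the 3 that could be tested without SCN replicates 5 and 6. Cidec and Fabp4, also adipocyte genes, could not be tested. Cidec was listed at 0 in all 6 SCN libraries and had 0.03 to 0.95 FPKM in 5 DRG libraries. Fabp4 had 1543 and 2874 FPKM in 2 SCN libraries, against 1.45 to 29.5 FPKM in all 6 DRG libraries. Adipoq, adiponectin, had the largest rise of all genes under the rule, 5.52 ± 0.48, with 46.0, 226, 38.9 and 96.3 FPKM in SCN replicates 1, 2, 5 and 6, against 0.16 to 3.04 FPKM in all 6 DRG libraries (median 0.62). Lpl, lipoprotein lipase, had 26.5 to 134 FPKM in 5 SCN libraries (median 61.9), against 1.34 to 2.91 FPKM in 4 DRG libraries (median 1.98), and Cebpa, a factor of fat cell differentiation, had 7.68 to 48.5 FPKM in all 6 SCN libraries (median 29.1), against 0.90 to 1.27 FPKM in all 6 DRG libraries (median 1.02), a difference of 3.52 ± 0.36. Lep, leptin, had 3.79 to 11.7 FPKM in 4 SCN libraries (median 7.14), against 0.11 to 0.43 FPKM in 4 DRG libraries (median 0.13). Thrsp, a lipogenic gene, was not called, with 11.1 to 95 FPKM in all 6 SCN libraries (median 38), against 21.3 to 26.1 FPKM in all 6 DRG libraries (median 23.6). The amount of fat in each nerve sample was not tested as a source of this spread.

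Brown fat genes did not share a direction, with 4 called higher and 2 lower. Cox8b, a cytochrome c oxidase subunit, had 3.82 to 19.4 FPKM in all 6 SCN libraries (median 10.8), against 0.67 to 1.77 FPKM in 5 DRG libraries (median 1.04), and Cidea, a lipid droplet protein, had 0.16 to 1.82 FPKM in all 6 SCN libraries (median 0.65), against 1.84 to 4.3 FPKM in 4 DRG libraries (median 1.93). Ppargc1a, the coactivator PGC-1α, was lower in SCN, with 1.73, 1.78 and 1.08 FPKM in the 3 SCN libraries with a value, against 5.04 to 5.61 FPKM in 5 DRG libraries (median 5.41), a difference of -1.35 ± 0.11, and Ppargc1b differed by -1.02 ± 0.09. The receptors themselves went the other way. Rxra, the partner of PPARs, had 15.9 to 20.2 FPKM in all 6 SCN libraries (median 17.2), against 5.82, 5.63 and 5.57 FPKM in the 3 DRG libraries with a value, a difference of 1.49 ± 0.08, and Ppara, the receptor of fatty acid oxidation, differed by 0.84 ± 0.09. Pparg, the target of pioglitazone, was listed at 0 in all 6 SCN libraries and had 0.62 to 0.93 FPKM in 2 DRG libraries. The paper reports the reverse from FPKM averaged over its dataset, with Pparg expressed in SCN and only Ppard, at a low level, in DRG. Since zeros here also fall on abundant genes, they do not show that Pparg is absent from the nerve.

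Skeletal muscle genes gave no shared direction: 3 of 9 were called higher in SCN, none lower, and the median was 0.01. With median-of-ratios scaling 2 were called higher and 1 lower (median -0.37), and with quantile scaling also 2 and 1 (median -0.53). Des and Tnnc1, which other muscle and heart cells also use, were higher (2.37 ± 0.14 and 1.95 ± 0.19), as was Actn3 (0.69 ± 0.23). Ckm, muscle creatine kinase, had 1.36 to 4.89 FPKM in all 6 SCN libraries (median 2.41), against 0.34 to 7.87 FPKM in all 6 DRG libraries (median 2.58), and was not called (0.01 ± 0.39).

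Of 14 testable genes of insulin-like growth factor and insulin signalling, 10 were called higher in SCN and 2 lower. Over all tested genes, 52.6% were called higher and 31.2% lower. Among the 14, 3 reached 1 FPKM in SCN libraries only. With median-of-ratios scaling 10 were called higher and 3 lower, and with quantile scaling 9 and 3. Igfbp6, a binding protein that prefers IGF2, had 410.4, 471 and 549 FPKM in the 3 SCN libraries with a value, against 7.27 to 14.3 FPKM in all 6 DRG libraries (median 12), a difference of 5.30 ± 0.20. Igfbp7 had 233 to 411 FPKM in all 6 SCN libraries (median 328), against 19 to 26.6 FPKM in all 6 DRG libraries (median 23), and Igfbp2 was lower, with 0.17 to 1.4 FPKM in 5 SCN libraries (median 0.26), against 4.7, 4.68 and 6.41 FPKM in the 3 DRG libraries with a value. Irs1, the insulin receptor substrate, had 12.4, 11.7 and 8.09 FPKM in the 3 SCN libraries with a value, against 0.84 to 1.41 FPKM in all 6 DRG libraries (median 1.15), a difference of 2.44 ± 0.14, while Irs2 was lower by a small amount (-0.50 ± 0.14). Insr, the insulin receptor, differed by 0.86 ± 0.09 and Igf1r was not called (0.15 ± 0.10). Lepr, the gene that carries the db allele, had 2.25 to 6.57 FPKM in 5 SCN libraries (median 4.02), against 0.39 to 0.66 FPKM in all 6 DRG libraries (median 0.57), a difference of 1.60 ± 0.19. These tables do not separate its alleles or isoforms.

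Axon guidance genes were split between the tissues, 8 higher and 5 lower in SCN of 16 tested. This is near the shares over all tested genes (52.6% and 31.2%). With median-of-ratios scaling and with quantile scaling the calls were 6 higher and 6 lower. Slit3, a repellent, had 8.18 to 11.8 FPKM in 5 SCN libraries (median 10.6), against 0.71 to 1.14 FPKM in 4 DRG libraries (median 0.94), and Ephb1, an ephrin receptor, had 5.45 to 8.17 FPKM in all 6 SCN libraries (median 6.86), against 0.94 to 1.1 FPKM in all 6 DRG libraries (median 1.02). Plxna4, the plexin through which semaphorin 3A acts on sensory axons, was lower, with 0.41 to 0.96 FPKM in all 6 SCN libraries (median 0.68), against 11 to 11.4 FPKM in 4 DRG libraries (median 11.2), a difference of -2.88 ± 0.11. Unc5c, a netrin receptor, was lower as well, with 0.05 to 0.41 FPKM in 5 SCN libraries (median 0.25), against 2.09 to 2.56 FPKM in all 6 DRG libraries (median 2.35). The ligand Ntn1 (3.44 ± 0.40, and 4.11 ± 0.15 without SCN replicates 5 and 6) and its receptors Unc5b (-0.70 ± 0.09) and Unc5c (-1.46 ± 0.08) thus had differences of opposite sign.

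Hox genes, which carry position along the body axis, were mixed, with 5 called higher and 7 lower of 17 tested. Hoxd1 was by far the lowest in SCN, with 0.19, 0.26 and 0.13 FPKM in the 3 SCN libraries with a value, against 17.5 to 22.8 FPKM in all 6 DRG libraries (median 19.9), a difference of -4.15 ± 0.09. In the mouse this gene acts in nociceptors. Hoxb6 (-1.55 ± 0.08) was the only other member past 2-fold on the lower side, and Tbx15 (2.13 ± 0.24), a T-box factor on the same list, the only one past it on the higher side. With median-of-ratios scaling the calls of this list were 2 higher and 11 lower, so the direction of its small differences depends on the scaling.

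Immediate early genes were higher in SCN in 10 of 13 tested. Klf2, a factor of vessels and lymphocytes, had 7.06 to 28.5 FPKM in all 6 SCN libraries (median 20.8), against 0.76 to 2.12 FPKM in all 6 DRG libraries (median 1.41), and Zfp36, which destabilises cytokine messages, had 14.4 to 35.3 FPKM in 5 SCN libraries (median 17.4), against 1.94 to 2.88 FPKM in all 6 DRG libraries (median 2.12). Fos differed by 1.79 ± 0.21 and Egr1 by 1.63 ± 0.20. As deposited, Jun was the 1 member called lower, Ier3 and Arc were not called, and the list median was 1.03. With median-of-ratios scaling 8 were called higher and 2 lower (median 0.56), and with quantile scaling 7 and 2 (median 0.52).

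Few metabolic genes could be tested. None of the 4 testable genes of cholesterol synthesis and none of the 4 of fatty acid and sphingolipid synthesis passed 2-fold. Cyp51, a demethylase of sterol synthesis, had 35 to 38.4 FPKM in 4 SCN libraries (median 37), against 21.7 to 24.4 FPKM in 5 DRG libraries (median 22.7), and Mvd, mevalonate decarboxylase, had 17.4 to 25.7 FPKM in all 6 SCN libraries (median 18.5), against 34.5 to 40.1 FPKM in 4 DRG libraries (median 35.8). Under median-of-ratios scaling Cyp51 was at 0.05 on the log2 scale, against 0.67 ± 0.05 as deposited. Pfkl, the liver-type phosphofructokinase, was lower in SCN (-0.90 ± 0.07). Gapdh, a glycolytic enzyme, could not be tested, with 212 to 234 FPKM in all 6 SCN libraries (median 217), against 685 and 677 FPKM in the 2 DRG libraries with a value. In db/+ PIO mice it differed by -1.57 ± 0.09, and Pgk1, phosphoglycerate kinase, by -1.53 ± 0.09. Slc16a1, the lactate transporter MCT1 of Schwann and perineurial cells, was higher, with 18.9 to 48.8 FPKM in all 6 SCN libraries (median 43.5), against 14.3 to 15.8 FPKM in all 6 DRG libraries (median 14.6), a difference of 1.16 ± 0.22 and past 2-fold.

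Further large rises outside the lists were in secreted and matrix proteins. Angptl7, an angiopoietin-like protein, had 72.6 to 111 FPKM in 4 SCN libraries (median 92.2), against 1.09 to 2.05 FPKM in all 6 DRG libraries (median 1.21), a difference of 5.28 ± 0.15. Gpc3, glypican 3, differed by 4.95 ± 0.07. Serpind1, heparin cofactor II, had values in all 12 libraries, 57.4 to 85.2 FPKM in all 6 SCN libraries (median 68.3), against 1.38 to 2.83 FPKM in all 6 DRG libraries (median 1.75), a difference of 4.59 ± 0.12. Crispld2 differed by 4.52 ± 0.10.

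The same contrast in the db/+ PIO mice, which share no library with the db/+ mice, called most of the same genes. Of 4364 genes tested there, 3462 were called (79.3%), 2093 higher in SCN (48%) and 1369 lower (31.4%). At 2-fold, 1731 were called (39.7%), 1061 higher (24.3%) and 670 lower (15.4%). Of 2880 genes called in db/+ and also tested in db/+ PIO, 2610 (90.6%) were called again with the same sign and 0 with the opposite sign. Of the named genes called in db/+, Cidea (0.61 ± 0.68 in db/+ PIO, against -0.96 ± 0.30 in db/+) and Kcna1 (0.17 ± 0.19, against -0.25 ± 0.10) had another sign there and were not called. Of the 1415 called at 2-fold or more in db/+, 1406 (99.4%) were called again. Nefl differed by -8.42 ± 0.22 in db/+ PIO and -8.26 ± 0.22 in db/+, Serpind1 by 4.75 ± 0.11 and 4.59 ± 0.12, and Pou3f1 by 2.21 ± 0.20 and 2.23 ± 0.11. All 17 macrophage genes tested in db/+ PIO were called higher in SCN. Of 10 perineurial genes tested there, 8 were called higher, Perp was not called (0.32 ± 0.30) and Moxd1, which could not be tested in db/+, was lower (-2.20 ± 0.29). Of 4 mast cell genes tested there, 3 were called higher and Kit, the receptor of stem cell factor, which could not be tested in db/+, was lower (-2.58 ± 0.08).

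Of 3732 genes with values in all 4 groups, 0 (0%) had an SCN minus DRG difference that differed between db/+ PIO and db/+ in limma at an adjusted p below 0.05. At an unadjusted p below 0.05 there were 307, the smallest adjusted p was 0.0638, and limma with array weights called 10. Of 6 adipocyte genes tested in both, 5 had the larger difference in db/+ PIO and Cebpa did not (3.40 ± 0.41 in db/+ PIO, against 3.52 ± 0.36 in db/+). The difference in db/+ PIO was 7.10 ± 0.47 for Adipoq against 5.52 ± 0.48 in db/+, 6.19 ± 0.41 for Lpl against 4.40 ± 0.45, and 4.60 ± 0.74 for Cox8b against 2.24 ± 0.42, none of which passed that test. All 9 perineurial genes tested in both had the smaller one in db/+ PIO, with 2.26 ± 0.39 for Cldn1 in db/+ PIO against 3.80 ± 0.39 in db/+. The outcome of this comparison changed without SCN replicates 5 and 6 of db/+: then 153 of 3167 genes were called, 150 with a smaller or more negative difference in db/+ PIO, among them 6 perineurial, 6 matrix and 5 macrophage genes. Comp then differed by -3.15 ± 0.51 between db/+ PIO and db/+, Cldn1 by -2.21 ± 0.46 and Fmod by -2.05 ± 0.36.

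**Figure D5:**
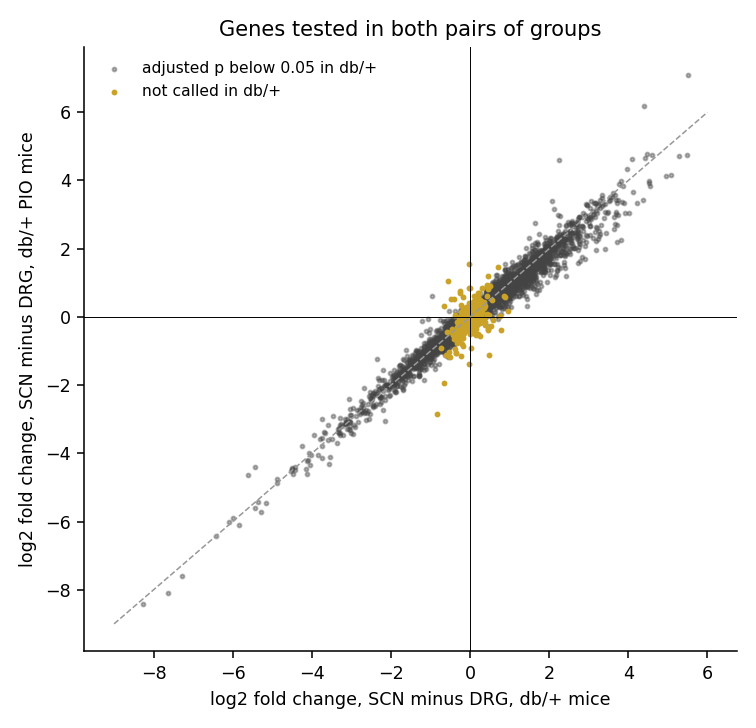
Log2 difference, SCN minus DRG, in db/+ PIO mice (vertical axis) against that in db/+ mice (horizontal axis) for the 3444 genes tested in both, with the line of equal differences (dashed), dark points for genes called in db/+ and yellow points for genes not called. The points follow the line from Nefl at the lower left to Adipoq at the upper right. The yellow point farthest below the line is Comp, at -0.84 in db/+ and -2.85 in db/+ PIO.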

How the data were processed

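Total RNA of 6 SCN and 6 DRG samples per group was made into libraries with a poly-A kit that does not keep the strand. Reads were mapped by the authors to mouse genome NCBI 37 (mm9) with TopHat and Bowtie, and they deposited 1 table of FPKM values per library, which the submitters' processing notes credit to Cufflinks. No other unit was used here. FPKM keep no read depth, so the depth behind each value is unknown, and no counting interval is given. The authors' own test, Cuffdiff, was not repeated.

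The FPKM were taken as log2(FPKM + 1), with exact zeros as missing, and genes entered the test if each tissue had 3 or more values and 3 or more libraries reached 1 FPKM. limma 3.58.1 in R 4.3.3 was fitted with a mean-variance trend to the 12 libraries, to the 12 db/+ PIO libraries, and to all 24 with an interaction term, with Benjamini-Hochberg adjustment over all tested genes. The fit was tested on simulated data. Single library measures were compared by an exact permutation test (two-sided, smallest possible p 0.00216 for the 6 against 6 design). Some genes are not reported here. The text names members of 38 gene lists, the 12 largest rises and 12 largest falls with at least 4 values per tissue and ranges that do not overlap and 1 sign in every fit without 1 library, the 10 highest genes of each tissue and the 10 highest of each with at least 5 values and only zeros in the other. The members and lists were chosen with earlier results of these data known. Alternatives changed the pseudocount, the filter, the scaling, the handling of zeros, the weights and the libraries used, and those without SCN replicates 5 and 6 were added after the values were seen. Promoter sequences were from RefSeq (GRCm38.p6) and were located in mm9 by exact match.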

Additional observations from a re-analysis of the deposited data

Results flagged for a closer look

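Within each tissue, a library was picked out where its gap to the nearest other value was large for the range of the group (Dixon's test at the 95% level). This was run on 191 sets of 4 to 6 values of named genes and picked out 13, where chance gives about 1 in 20 sets. In SCN, Uchl1 was at 109 FPKM in replicate 6 against 81.9 to 88.3 FPKM in the other 4 with a value, and Gfap was at 4.53 FPKM in replicate 5 against 2.49 to 2.76 FPKM. Cspg4 was at 13.2 FPKM in SCN replicate 5 against 15.1 to 15.2 FPKM. In SCN replicate 2, Cartpt was at 0.47 FPKM against 0.1 to 0.16, Insm2 at 0.09 FPKM against 0.02 to 0.04, and Crispld2 at 56.9 FPKM against 71.8 to 74.4.

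In DRG, 5 of the 7 cases were replicate 4. Adipoq was at 3.04 FPKM there against 0.16 to 0.75 in the other 5, Lep at 0.43 FPKM against 0.11 to 0.15, and Cidea at 4.3 FPKM against 1.84 to 2.01. Tpsb2 was at 1.03 FPKM in that library against 0.16 to 0.41, and Foxd1 at 1.13 FPKM against 0.25 to 0.53. Shh was at 13.1 FPKM in DRG replicate 2 against 15.3 to 15.7, and Ccl2 at 3.89 FPKM in DRG replicate 6 against 2.14 to 2.76.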

How the results depend on the processing

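Of 2487 values of the 107 named genes under alternatives, 2414 kept their direction and their side of the threshold, 56 lost the call, 3 gained it and 14 turned their sign. Zeros entered as values gave 49 of the 56 losses and 4 of the sign changes, and 54 of the 107 genes kept direction and call there. The sign turned for Comp, at 0.54 with zeros as values and 0.30 without SCN replicates 5 and 6, and, with zeros as values, for Mvd (0.90), Cyp51 (-0.32) and Pfkl (0.81). Ckm, never called, was at -0.37 with median-of-ratios scaling, -0.53 with quantile scaling, -0.095 with array weights, -0.00043 without SCN replicates 5 and 6, and -0.27 to 0.27 in fits that left out 1 library. The cause was not tested.

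The counts depended on the filter and on zeros. They are given as called in db/+, higher, lower, called in db/+ PIO and called in both. A minimum of 5 FPKM gave 2288 called and 1380 higher, 2097 in db/+ PIO and 1550 in both. At least 5 values per tissue gave 1774, 1146, 628, 1733 and 1120. The 2-fold rule gave 1780, 1181, 599, 1731 and 1245. Zeros as values gave 2076, 1469, 607, 1901 and 1029. Quantile scaling gave 1313 higher. Genes whose difference changed with pioglitazone, 0 as deposited, were 1 at 5 FPKM, 1 with quantile scaling, 2 with all 8 nerve groups, 3 with zeros as values, 10 with array weights and 153 without SCN replicates 5 and 6. Leaving out 1 library at a time gave 3224 to 3429 called, 1939 to 2169 higher, 1134 to 1315 lower, 3087 to 3209 in db/+ PIO, 2398 to 2508 in both and 0 to 5 changed with pioglitazone. The SCN minus DRG difference in genes above 0 was then 629.5 to 1057.7. The difference in FPKM sum, 30659 with all libraries (exact permutation p = 0.0541), was 18982 to 36556, and passed the threshold without SCN replicate 1, 3 or 4 or DRG replicate 4. Without the 10 highest genes it was 46898 (exact permutation p = 0.0022).

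A replicate block, which treats libraries of the same number as a pair, gave 3402 called of 4198 tested. The numbers did not pair the libraries: the correlation of their deviations was -0.016 to 0.185, over 0.1 in 2 of 6 pairs, and 2 of 6 SCN libraries correlated best with their own number.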

Other observations

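Granulocyte genes beyond S100a8 and S100a9, chosen after their values were seen, had values in DRG and few in SCN. Retnlg was at 0.42 FPKM in SCN replicate 4 only and at 1.57 to 21.0 FPKM in all 6 DRG libraries. Mpo, the myeloperoxidase of granule precursors, was listed at 0 in all SCN libraries and had 0.02 to 2.19 FPKM in all 6 DRG libraries, lowest in replicate 5 and highest in replicate 4.

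Genes valued in 1 tissue and listed at 0 in all 6 db/+ libraries of the other were 306 with 6 values in SCN and 139 with 6 values in DRG. Among such genes with at least 5 values, those with high levels in SCN included Sparc, a matrix glycoprotein, with 2616 to 3080.0 FPKM in 5 SCN libraries (median 2683). Sdhc, a succinate dehydrogenase subunit of mitochondria that every cell uses, had 96.3 to 121 FPKM in all 6 SCN libraries (median 104) and was at 0 in DRG. On the other side, Apoe, the apolipoprotein that satellite glia make, had 2634 to 3159 FPKM in all 6 DRG libraries (median 2872), and Gatm, an enzyme of creatine synthesis, had 65.2 to 79.7 FPKM in 5 DRG libraries (median 74.1). Some zeros did not recur in db/+ PIO mice. Col1a1, the main fibrillar collagen chain, was at 321 FPKM in 1 SCN db/+ PIO library, against 0 in all 6 SCN db/+ libraries. Lum, lumican, was at 205 and 310 FPKM in 2 SCN db/+ PIO libraries, against 0 in all 6 SCN db/+ libraries.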
